A study of Mus musculus with 2 samples.

Results

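The genes described here are 9 genes that make, bind, import or degrade retinoids, that is vitamin A and compounds made from it. They were chosen by name from the 43346 genes of the deposited tables: Aldh1a1, Aldh1a2, Aldh1a3, Rdh10, Rbp7, Crabp1, Crabp2, Stra6 and Cyp26b1. All 9 were found in both libraries, and all 9 reached 1 TPM in both, where TPM is the level of a gene per transcript length and library size. The libraries were 2 biological replicates of mammary gland from C57BL/6J mice aged 8 weeks, littermates of both sexes that were pooled. Polyadenylated, ribosome-depleted RNA longer than 200 nt had been sequenced with strand information as paired reads of 76 nt. Both replicates belong to 1 untreated group and the labels give them the same donor entry, so the study holds no contrast between conditions. What can be compared is the level of each gene within a library and the difference between the libraries, and with 1 sample on each side that difference has no replicate check and no p-value. The labels do not say whether the 2 libraries came from separate animals or separate pools.

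Retinoic acid is made from vitamin A in a pair of steps. Retinol dehydrogenases such as Rdh10 oxidise retinol to retinaldehyde, and the retinaldehyde dehydrogenases Aldh1a1, Aldh1a2 and Aldh1a3 oxidise retinaldehyde to retinoic acid. Retinol travels in blood on Rbp4 and can enter cells through the membrane receptor Stra6, small cytosolic proteins carry retinol (such as Rbp7) or retinoic acid (Crabp1, Crabp2), and enzymes of the Cyp26 family clear retinoic acid by hydroxylation. Retinoic acid acts through the nuclear receptors of the Rar family, which pair with those of the Rxr family. Adipose tissue, which surrounds the ducts of the mouse mammary gland, is a known store of retinol and a source of Rbp4.

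Replicate 1 held 56323489 and replicate 2 held 42400470 summed expected counts, the estimated numbers of fragments per gene. Mitochondrial genes took 17.8% of the gene TPM in replicate 1 and 4.34% in replicate 2. Markers of mammary epithelium were present in both: all 11 luminal and all 6 basal markers on the lists reached 1 TPM, with summed levels of 1065 and 1862 TPM (luminal) and of 659 and 514 TPM (basal) in replicates 1 and 2. Markers of other tissues differed widely between the libraries. The 7 skeletal muscle markers summed to 27572 TPM in replicate 1 and 13.1 TPM in replicate 2, the 6 brown adipocyte markers to 915 and 164 TPM, the 7 keratinocyte markers to 106 and 6.67 TPM, and the 5 liver markers to 20.4 and 209 TPM. White adipocyte markers summed to 22524 and 38542 TPM over 12 genes, of which 6 were higher in replicate 2. Cfd, the adipokine adipsin, made up most of that difference, and the other 11 summed to 8928 and 9491 TPM. The level of a gene in whole tissue cannot separate fewer cells of a type from less RNA per cell.

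Promoter sequence was available for 6 of the 9 genes in the RefSeq promoter table on GRCm38.p6, the same assembly as mm10. The 6 sequences below are the 100 bases before the first base of the annotated transcript, 5′ to 3′ on the gene's strand. Stra6 has a pair of them, and Cyp26b1 has none. A further Aldh1a1 start, at position 20492583, and further Stra6 starts, at positions 58134075 and 58134665, are not shown. For Stra6 the sequences are shown because the transcript shares given further on differ between its annotated starts. Capitals mark the motifs that were found. The first is CCAAT, a box known from many promoters. The next is GGGCGG, known as the GC box, which reads CCGCCC where it lies on the opposite strand. The last is ATAAAA, which resembles a TATA box.
Aldh1a1 (chr19:20601861-20601960, plus strand): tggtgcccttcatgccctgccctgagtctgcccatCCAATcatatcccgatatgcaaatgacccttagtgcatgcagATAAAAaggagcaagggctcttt
Aldh1a2 (chr9:71215689-71215788, plus strand): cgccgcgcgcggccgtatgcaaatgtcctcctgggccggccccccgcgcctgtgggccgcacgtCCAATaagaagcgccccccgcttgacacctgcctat
Rbp7 (chr4:149454979-149455078, minus strand): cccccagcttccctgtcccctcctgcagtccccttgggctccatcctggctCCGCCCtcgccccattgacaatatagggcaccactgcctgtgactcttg
Crabp1 (chr9:54764648-54764747, plus strand): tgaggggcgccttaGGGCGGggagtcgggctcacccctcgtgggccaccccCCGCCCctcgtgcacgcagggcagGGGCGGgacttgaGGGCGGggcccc
Stra6, start of the leading transcript (chr9:58128988-58129087, plus strand): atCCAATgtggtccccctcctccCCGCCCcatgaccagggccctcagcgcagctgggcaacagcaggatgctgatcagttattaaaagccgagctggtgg
Stra6, start 261 bases further downstream (chr9:58129249-58129348, plus strand): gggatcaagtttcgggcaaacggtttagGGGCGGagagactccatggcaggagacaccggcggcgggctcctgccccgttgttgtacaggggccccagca

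The Aldh1a1 window held CCAAT and ATAAAA, first bases 72 and 30 bases before the RefSeq start. The 250 bases before the other Aldh1a1 start, at position 20492583, held neither. The Aldh1a2 window held CCAAT 36 bases before its start, in a sequence whose 250 bases upstream of the start were 77.6% G or C with 40 CG dinucleotides. The Crabp1 window held GGGCGG 4 times. These hits are in the 100 bases shown. Over 250 bases, GGGCGG was found 5 times for Crabp1. For the Aldh1a1 start shown, CCAAT and ATAAAA were found 1 time each over 250 bases, as was CCAAT for Aldh1a2. Among all 32851 promoters of the table, read over 250 bases and on both strands, 33.8% held CCAAT, 32.7% held GGGCGG and 17.0% held ATAAAA, and the median was 52.4% G or C with 6 CG dinucleotides. The same 250 bases were searched for TATAAA, which can share bases with ATAAAA, for the retinoic acid response half-sites AGGTCA and AGTTCA, and for DR5, a pair of such half-sites in the same direction with 5 bases between them. TATAAA was in 12.4% of all promoters and, among the 10 windows that the table holds for the 6 genes, in 1 of Cyp26b1. AGGTCA (in 14.0% of all promoters), AGTTCA (in 11.8%) and DR5 (in 0.0335%) were in none of the 10 windows. These are matches of letters in a short window and say nothing of binding.

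The retinaldehyde dehydrogenases differed most between the libraries through 1 gene. Aldh1a1 (ENSMUSG00000053279.6, chromosome 19, 20492715 to 20643465, plus strand, mm10) was at 23.1 TPM in replicate 1 and 6.45 TPM in replicate 2. Its level was thus 3.58-fold higher in replicate 1, and it went from the 66.3rd to the 33.7th percentile of the genes that reached 1 TPM in each library. In fragments it had 1835.28 against 364.33. The count ratio scaled by library total, replicate 2 over replicate 1, was -1.92 on the log2 scale with an exact 95% interval of -2.09 to -1.76. This interval covers counting error only and lay wholly beyond 2-fold.

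Aldh1a1 was the only one of the 9 genes whose interval lay wholly beyond 2-fold toward replicate 1, and none lay wholly beyond 2-fold toward replicate 2. Of the 14510 genes with a mean of at least 1 TPM, 9.43% lay beyond 2-fold toward replicate 1 and 8.73% toward replicate 2. A count of 1 in 9 genes is near those shares. When counts were scaled by the spike-in RNAs in place of library totals, the Aldh1a1 ratio was -1.16 with an interval of -1.33 to -0.997, no longer wholly beyond 2-fold. Under that scaling 2.94% of the 14510 genes lay beyond 2-fold toward replicate 1 and 30.9% toward replicate 2. Other call rules gave other counts, each beside its own share of all genes. With TMM factors the count was again 1, Aldh1a1, against 8.15% toward replicate 1 and 10% toward replicate 2. With DESeq2 size factors Aldh1a1 lay beyond 2-fold toward replicate 1 (7.25% of all genes) and Crabp1 toward replicate 2 (11.2%). At a limit of 1.5-fold, 2 genes lay toward replicate 1 (21.1%) and 2 toward replicate 2 (18.7%), and at 4-fold none did (2.6% and 1.32%). With the GC trend described further on removed, the count was 1, Aldh1a1, against 4.1% toward replicate 1 and 6.08% toward replicate 2 of 13220 protein-coding genes.

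The brown adipocyte, keratinocyte and muscle markers above were also higher in replicate 1: all 6, all 7 and all 7 of them, with the brown adipocyte marker Zic1 at 0 in replicate 2. Basal epithelial, fibroblast, and macrophage and dendritic cell markers also had a higher sum there, with 5 of 6, 5 of 8 and 4 of 8 genes higher. Dcn made up nearly all of the fibroblast difference, and the other 7 fibroblast markers summed to 1554 and 1552 TPM. Without Lyz2 the macrophage and dendritic cell sum was instead lower in replicate 1, at 255 against 323 TPM. The part of all these cell types in the Aldh1a1 difference was not tested.

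Aldh1a7, a close paralog of Aldh1a1 that was looked up after its values were seen, was at 24.4 and 12.9 TPM. Reads can be shared between such copies. The posterior standard deviation of the Aldh1a1 count in the deposited tables was 0.44 fragments in replicate 1 and 0.47 in replicate 2. That is the uncertainty of the deposited estimate, and the part of shared reads in the Aldh1a1 difference was not tested. The count ratio of Aldh1a7 was -1.01 on the log2 scale, with an interval of -1.13 to -0.89.

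Aldh1a3 (ENSMUSG00000015134.10, chromosome 7, 66390890 to 66427517, minus strand) was at 11.40 TPM in replicate 1 and 12.18 TPM in replicate 2. Its fragments gave a log2 count ratio of -0.17, with an interval of -0.30 to -0.04. The TPM was thus slightly higher in replicate 2 and the scaled count slightly lower. The length by which the tables divide the Aldh1a3 count was 2734 nt in replicate 1 and 2432 nt in replicate 2, since the mixture of its transcripts was estimated differently. The direction of so small a difference therefore depended on the unit.

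Aldh1a2 (ENSMUSG00000013584.5, chromosome 9, 71215789 to 71296243, plus strand) was the lowest of the family, at 2.90 and 2.52 TPM. Its log2 count ratio was -0.28 with an interval of -0.58 to 0.01, the one interval of the 9 that held 0 when counts were scaled by library totals. With TMM or DESeq2 factors the intervals of Aldh1a3, Rbp7 and Stra6 held 0 as well. With the GC trend removed those of Aldh1a2, Aldh1a3, Rbp7 and Rdh10 did. The summed TPM of Aldh1a1, Aldh1a2 and Aldh1a3, with Aldh1a7 left out, was 37.4 in replicate 1 and 21.2 in replicate 2. Of that sum, Aldh1a1 took 61.8% and 30.5%, Aldh1a3 took 30.5% and 57.6%, and Aldh1a2 took 7.75% and 11.9%. The leading gene among these was therefore Aldh1a1 in replicate 1 and Aldh1a3 in replicate 2. The ratio of Aldh1a1 to Aldh1a3 in TPM was 2.03 and 0.53.

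Rdh10 (ENSMUSG00000025921.7, chromosome 1, 16105774 to 16133734, plus strand), which supplies retinaldehyde in the embryo, was at 9.79 and 7.44 TPM. Its log2 count ratio was -0.47, with an interval of -0.60 to -0.34. Summed over the 4 synthesis genes, the level was 47.2 TPM in replicate 1 and 28.6 TPM in replicate 2. Of that gap of 18.6 TPM, the difference in Aldh1a1 was 16.7 TPM.

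**Figure D1:**
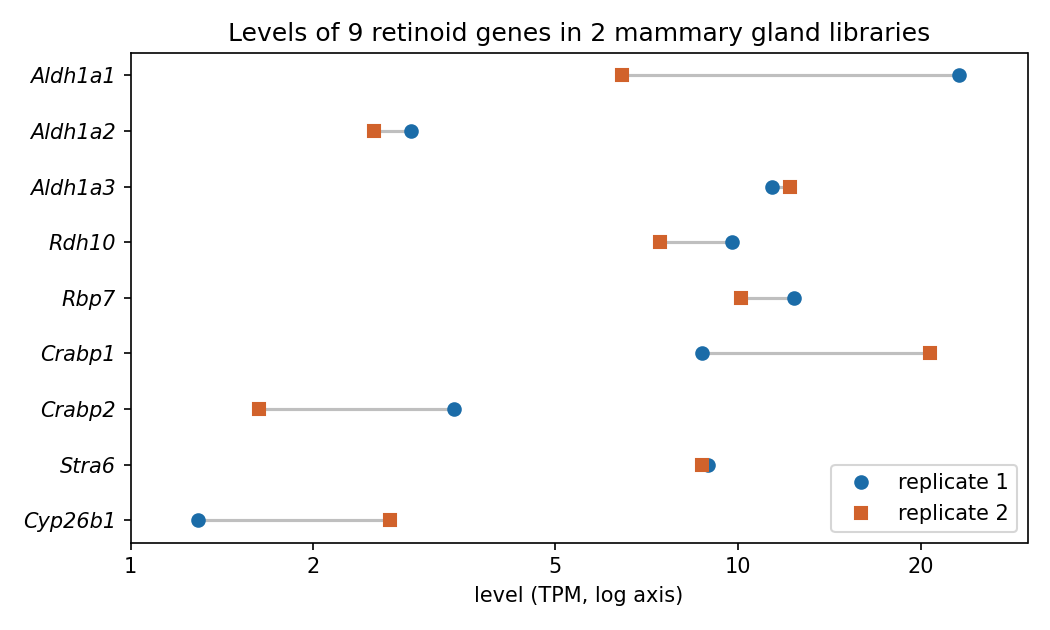
Levels of the 9 genes in TPM (log axis), with replicate 1 as circles, replicate 2 as squares and a line joining the 2 values of a gene. Aldh1a1 lay at 23.1 and 6.45 TPM and Crabp1 at 8.74 and 20.75 TPM, while the Stra6 points at 8.92 and 8.73 TPM nearly coincide.

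The genes that bind and import retinoids were led by different members in the 2 libraries. Crabp1 (ENSMUSG00000032291.8, chromosome 9, 54764748 to 54773110, plus strand), a cytosolic carrier of retinoic acid, was at 8.74 TPM in replicate 1 and 20.75 TPM in replicate 2. It had the sixth level of the 9 genes in replicate 1 and the highest in replicate 2. Its log2 count ratio was 1.16, with an interval of 0.92 to 1.41 that reached inside 2-fold. With DESeq2 size factors the interval was 1.05 to 1.54 and so lay beyond 2-fold. Crabp2 (ENSMUSG00000004885.5, chromosome 3, 87948666 to 87953376, plus strand), which delivers retinoic acid to its nuclear receptors, was at 3.41 and 1.63 TPM. It rested on 106 and 36 fragments, the fewest of the 9 genes, and its log2 count ratio of -1.15 had the widest interval, -1.74 to -0.59. The ratio of Crabp1 to Crabp2 in TPM was 2.56 in replicate 1 and 12.7 in replicate 2.

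Rbp7 (ENSMUSG00000028996.5, chromosome 4, 149449687 to 149454978, minus strand), a cellular retinol-binding protein known from adipose tissue, was at 12.37 and 10.12 TPM. Its log2 count ratio was -0.38, with an interval of -0.71 to -0.06. Stra6 (ENSMUSG00000032327.10, chromosome 9, 58063788 to 58153996, plus strand) was at 8.92 and 8.73 TPM, the smallest difference in TPM among the 9 genes. Its log2 count ratio was -0.19, with an interval of -0.33 to -0.04. Rbp4, whose protein is the ligand-bearing partner of Stra6, was at 297.71 and 295.16 TPM, so that the ratio of Rbp4 to Stra6 was 33.4 and 33.8. Summed over the 4 binding and uptake genes, the level was 33.4 TPM in replicate 1 and 41.2 TPM in replicate 2.

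Cyp26b1 (ENSMUSG00000063415.8, chromosome 6, 84571414 to 84593908, minus strand), which degrades retinoic acid, was at 1.29 TPM in replicate 1 and 2.67 TPM in replicate 2. It was the lowest of the 9 genes in replicate 1 and the seventh in replicate 2. Because its transcript is long, these low levels still rested on 249 and 368 fragments. The log2 count ratio was 0.97, with an interval of 0.74 to 1.21. Scaled by the spike-in RNAs, Cyp26b1 and Crabp1 both lay beyond 2-fold toward replicate 2, at 1.74 and 1.92, as did 30.9% of all genes under that scaling.

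Luminal, lymphocyte and liver markers had a higher sum in replicate 2, as Crabp1 and Cyp26b1 had a higher level there. Those sums were 1065 and 1862 TPM over 11 luminal genes (8 higher), 304 and 550 TPM over 7 lymphocyte genes (5 higher), and 20.4 and 209 TPM over 5 liver genes (all 5 higher). Cd79a, a B cell receptor component, made up most of the lymphocyte difference, and the other 6 summed to 134 and 170 TPM. White adipocyte markers without Cfd differed by 1.06-fold. No gene on these 4 lists was at 0 in either library. Their part in the Crabp1 and Cyp26b1 differences was not tested.

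**Figure D2:**
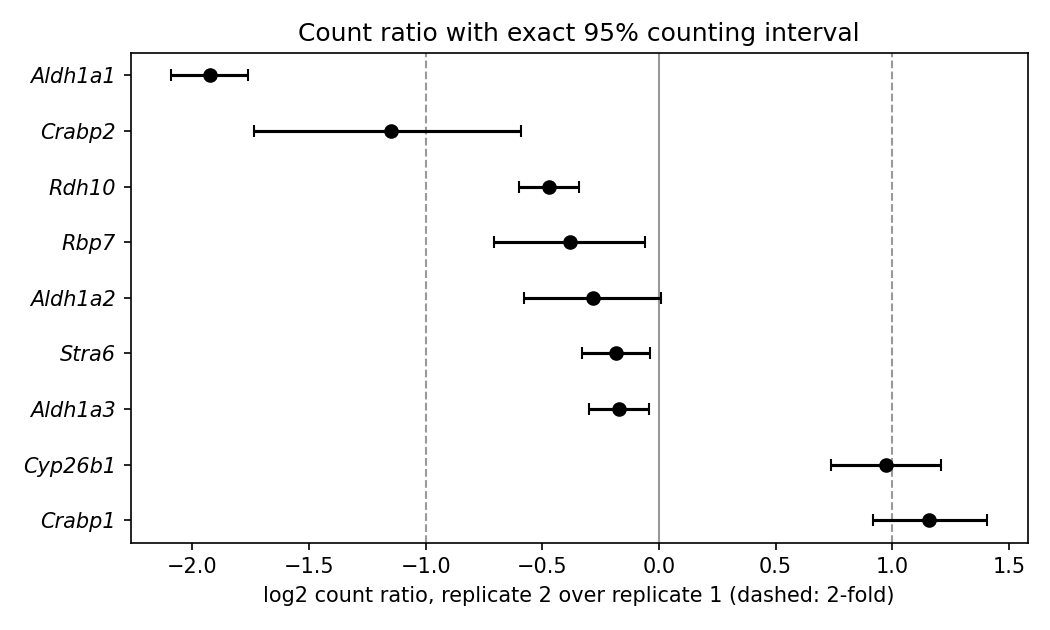
Log2 ratio of expected counts, replicate 2 over replicate 1, scaled by library totals, for each of the 9 genes; points are ratios, bars are exact 95% counting intervals and dashed lines mark 2-fold. The Aldh1a1 bar, -2.09 to -1.76, is the one that lies wholly outside the dashed lines.

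By mean TPM over both libraries, the order was Aldh1a1 (14.8 ± 11.8, SD, n = 2), Crabp1 (14.7 ± 8.49), Aldh1a3 (11.8 ± 0.552), Rbp7 (11.2 ± 1.59), Stra6 (8.83 ± 0.134), Rdh10 (8.62 ± 1.66), Aldh1a2 (2.71 ± 0.269), Crabp2 (2.52 ± 1.26) and Cyp26b1 (1.98 ± 0.976). Most neighbours in this order had overlapping ranges. The exceptions were Rbp7 above Stra6 and Rdh10 above Aldh1a2. Every value of the upper 6 genes, from 6.45 TPM upward, exceeded every value of the lower 3, from 3.41 TPM downward. The summed level of the 9 genes was 81.9 and 72.5 TPM (77.2 ± 6.67, SD, n = 2), or 0.00839% and 0.00736% of all gene TPM.

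Over the 9 genes, 3 had a higher TPM in replicate 2 and 6 in replicate 1, with a median difference of -0.15 on the log2(TPM + 1) scale. The median over the 14510 genes was 0.05. Scaled by the spike-in RNAs, the log2 count ratios of all genes shifted up by 0.76, so that those of Aldh1a2, Aldh1a3, Rdh10, Rbp7 and Stra6 lay above 0, though under the median of all genes (0.70). The difference between the libraries moved with base composition across the transcriptome: over 13271 protein-coding genes, Spearman's rho between the GC content of the transcripts and the log2(TPM + 1) difference was 0.588, where all points share the same 2 libraries. Median differences ran from -0.66 in the tenth of genes lowest in GC to 1.03 in the tenth highest. Aldh1a1, at 46.2% GC, was lower in replicate 2 than genes of its GC content, for which the median difference was -0.38. Subtracting that median left -1.31 for Aldh1a1.

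For some of the other members the GC-matched median took up much of the difference. Crabp1, at 57.4% GC, went from a log2(TPM + 1) difference of 1.16 to 0.63. Cyp26b1, at 57.5% GC, went from 0.68 to 0.14, and Rdh10, at 46.8% GC, from -0.35 to -0.01. Aldh1a2 went from -0.15 to -0.01 and Rbp7 from -0.27 to -0.07. Stra6, at 56.8% GC, went the other way, from -0.03 to -0.49, since genes of its GC content had a median difference of 0.46. Aldh1a3 also moved away from 0, from 0.09 to 0.26, and Crabp2 changed little, from -0.75 to -0.61. The median of the 9 genes was -0.01 after this subtraction. Whether GC content was the source of these differences was not tested.

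**Figure D3:**
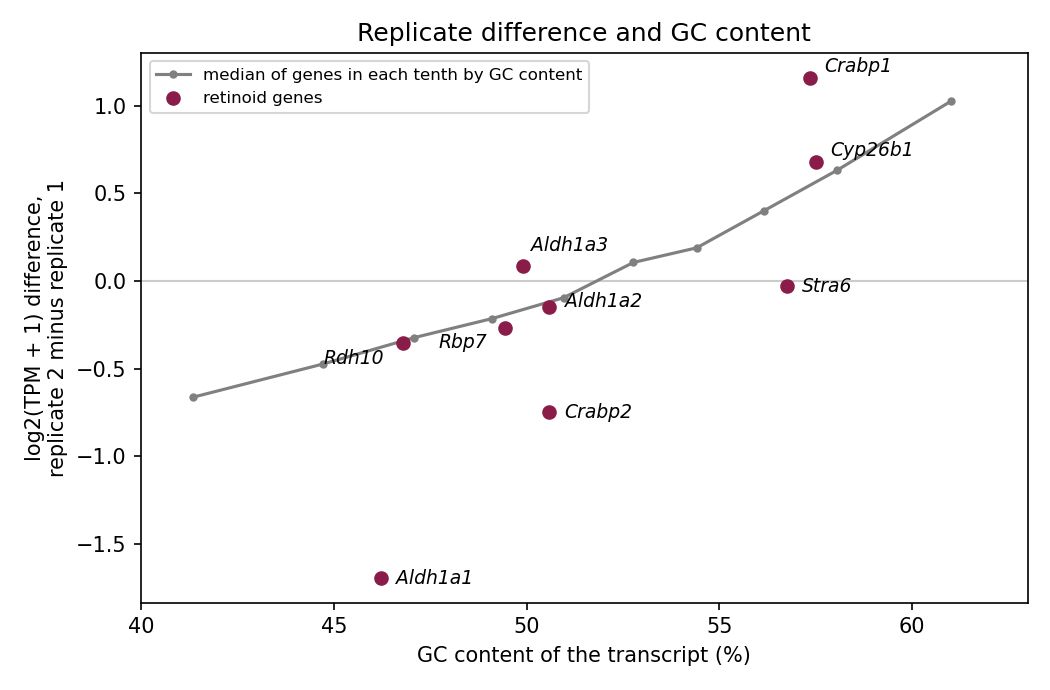
Difference between the libraries in log2(TPM + 1), replicate 2 minus replicate 1, against GC content of the transcripts in percent; named points are the 9 genes and the grey line joins the medians of protein-coding genes in 10 equal groups by GC content. Aldh1a1 (-1.69) and Crabp2 (-0.75) lie below the line and Crabp1 (1.16) above it, while Rdh10 and Aldh1a2 lie on or next to it.

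The tables listed 31 transcripts for the 9 genes, of which 14 had an estimated share of 0 in both libraries. The leading transcript was the same in both libraries for all 9 genes. Aldh1a2 (Aldh1a2-201), Crabp1 (Crabp1-201) and Aldh1a1 had 1 transcript each in the tables. Rbp7-201 and Crabp2-201 took 100% of their genes in both libraries. The Aldh1a1 transcript, Aldh1a1-201 (2053 nt, 13 exons), starts at position 20601961, well inside the gene as later annotated. For Aldh1a1, 5 further models of GENCODE M21 were not in the annotation used for these tables and have no estimate. The same held for 3 further models of Cyp26b1, and Cyp26b1-202 was 4700 nt as quantified and 4170 nt in M21. Rdh10-201, with 98.7% and 99.4% of its gene, left little to the retained-intron transcript.

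Aldh1a3 was the member with a sizeable second coding transcript. Aldh1a3-201 (3441 nt, 13 exons) took 69.9% and 56.8% of the gene's TPM in replicates 1 and 2, and Aldh1a3-204 (1066 nt, 7 exons) took 28.0% and 37.4%. The short transcript starts 1816 nt downstream of the long one and ends within the gene. In M21, 385 of its 1066 bases are not in Aldh1a3-201. Because it is short, its share of the fragments was smaller, at 9.48% and 14.4%, or 117.7 and 119.23 estimated fragments with posterior standard deviations of 11.7 and 15.5. Aldh1a3-203, also a coding transcript, took 2.17% and 4.91%.

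Stra6 had 14 transcripts in the tables, of which 9 were at 0 in both libraries. Stra6-202 (2725 nt, 19 exons, start 58129088) took 90.2% and 83.7% of the gene in the point estimate, and 78.9% and 71.55% by the posterior mean. Its promoter is the first of the Stra6 sequences above. Stra6-201, which starts 261 bases downstream behind the second one, was listed at 0 in both. Stra6-213 and Stra6-214, which start 5577 and 4987 bases downstream of Stra6-202, took 4.57% and 4.70%, and 4.29% and 5.09%. These shares were poorly determined: the posterior standard deviation of the Stra6-213 count was 41.2 fragments in replicate 1, against an estimate of 46.82. Stra6-206 took 0% and 5.80%, the latter from 4 fragments on a transcript of 471 nt. For Cyp26b1, all fragments were given to Cyp26b1-202 in the point estimate, while the posterior mean gave it 74.4% and 90.4% and left the rest to Cyp26b1-201.

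**Figure D4:**
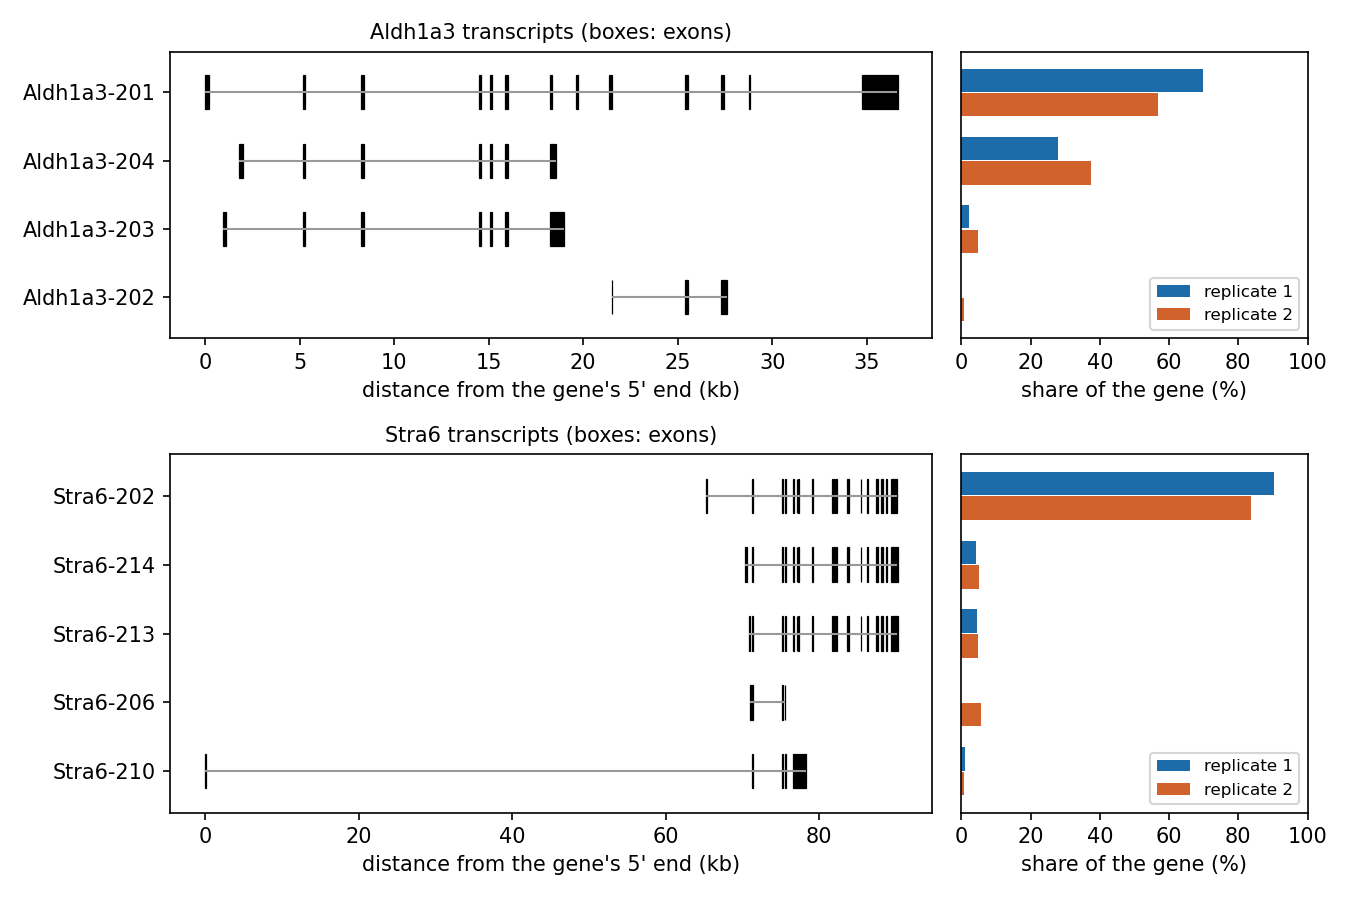
Exons of the Aldh1a3 and Stra6 transcripts with a share above 0 in either library (left, boxes; distance in kb from the 5′ end of the gene) and the share of the gene's TPM taken by each (right, percent; blue replicate 1, orange replicate 2). Aldh1a3-201 took 69.9% and 56.8%, with Aldh1a3-204 at 28.0% and 37.4%, while Stra6-202 took 90.2% and 83.7%.

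A further 40 genes of the retinoid pathway were looked up from 6 lists by role, and 22 of them reached 1 TPM in both libraries. Among the 25 whose mean TPM was 1 or more, 2 lay wholly beyond 2-fold toward replicate 2 (Ttr and Rara) and 1, Dhrs9, toward replicate 1. The shares of all genes given above were 8.73% toward replicate 2 and 9.43% toward replicate 1. Rdh7, Stra6l and Cyp26a1 also lay beyond 2-fold toward replicate 2, but their means were under 1 TPM. No share of all genes was computed at such low levels. The median log2(TPM + 1) difference of these 25 genes was -0.05.

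Enzymes that interconvert retinol and retinaldehyde were led by Dhrs3, which reduces retinaldehyde back to retinol, at 147.33 and 140.00 TPM. That was 15.0 and 18.8 times the level of Rdh10 in the same libraries. Adh1, a cytosolic alcohol dehydrogenase that accepts retinol, was at 78.75 and 76.14 TPM. Rdh5 was at 29.51 and 33.69 TPM, Adh5 at 26.08 and 19.26 TPM, Dhrs4 at 16.67 and 19.78 TPM and Rdh13 at 14.57 and 12.70 TPM. Lower by the mean of both libraries were Rdh14, at 9.37 and 14.22 TPM, Rdh11, at 12.33 and 6.59 TPM, and Rdh12, at 2.96 and 2.07 TPM. Of the 15 enzymes on this list 9 reached 1 TPM in both, and Dhrs9 alone lay wholly beyond 2-fold toward replicate 1. Its levels were 2.84 and 0.86 TPM, and its log2 count ratio was -1.80. Rdh7, named after its values were seen, had 0 fragments in replicate 1 and 80 in replicate 2. With a floor of 3 fragments per library in place of 0, its count scaled by library total was 35.4-fold higher in replicate 2. The lower end of its exact counting interval was 4.82 on the log2 scale, a smaller ratio, so 35.4-fold is not a minimum.

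Among the genes of retinyl ester handling, Dgat1, an acyltransferase that can esterify retinol, was at 413.39 and 348.70 TPM. Lipe, the hormone-sensitive lipase that can hydrolyse retinyl esters in fat, was at 443.65 and 704.37 TPM. Both act mainly on other lipids. Lrat, the dedicated retinol acyltransferase, named here although under 1 TPM, was at 0.43 and 0.22 TPM. Rpe65, the isomerase of the visual cycle, had 0 fragments in both.

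Of the 6 carriers, Rbp4 was the highest, and the fatty acid carrier Fabp5, which can also bind retinoic acid, was at 65.84 and 34.91 TPM. Ttr, the plasma partner of Rbp4, had 6 fragments in replicate 1 and 1172 in replicate 2, that is 0.14 and 37.94 TPM. Ttr is also on the list of liver markers, and the other 4 liver markers summed to 20.2 and 171 TPM. The part of liver RNA in the Ttr and Rdh7 differences was not tested. Stra6l, a relative of Stra6 named after its values were seen, was at 0.33 and 1.10 TPM. Rbp2 had 3 and 0 fragments, and Rbp3 had 0 in both.

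The other retinoic acid hydroxylases were lower than Cyp26b1. Cyp26a1, named after its values were seen, was at 0.07 and 0.44 TPM from 5 and 21 fragments, and Cyp26c1 had 2 fragments in each library. Cyp26b1 thus had the highest level of the 3 in both libraries.

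All 6 retinoid receptors on the list were measured, and 5 reached 1 TPM in both libraries. Rxra was the highest, at 85.76 and 132.44 TPM, followed in replicate 1 by Rxrb at 46.21 TPM and Rarg at 46.01 TPM. In replicate 2, Rxrb was at 99.31 TPM and Rarg at 75.63 TPM. Rara was at 22.14 and 69.59 TPM, the receptor that lay wholly beyond 2-fold toward replicate 2, with a log2 count ratio of 1.57 and an interval of 1.496 to 1.638. Its transcripts were 59.6% GC, and its log2(TPM + 1) difference of 1.61 was 0.81 after subtraction of the median for that GC content. Rxrg was at 20.55 and 12.14 TPM, and Rarb, itself a known target of retinoic acid, was at 2.21 and 0.91 TPM.

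Of 5 genes known to respond to retinoic acid, 4 reached 1 TPM in both libraries, and none lay wholly beyond 2-fold. Tgm2, a transglutaminase, was at 286.69 and 333.45 TPM, and Rarres2, which encodes the adipokine chemerin, was at 131.64 and 111.56 TPM. Rarres1 was at 2.29 and 3.60 TPM and Rai14 at 1.51 and 1.12 TPM. Stra8, a gene of germ cells, had 0 fragments in both.

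**Figure D5:**
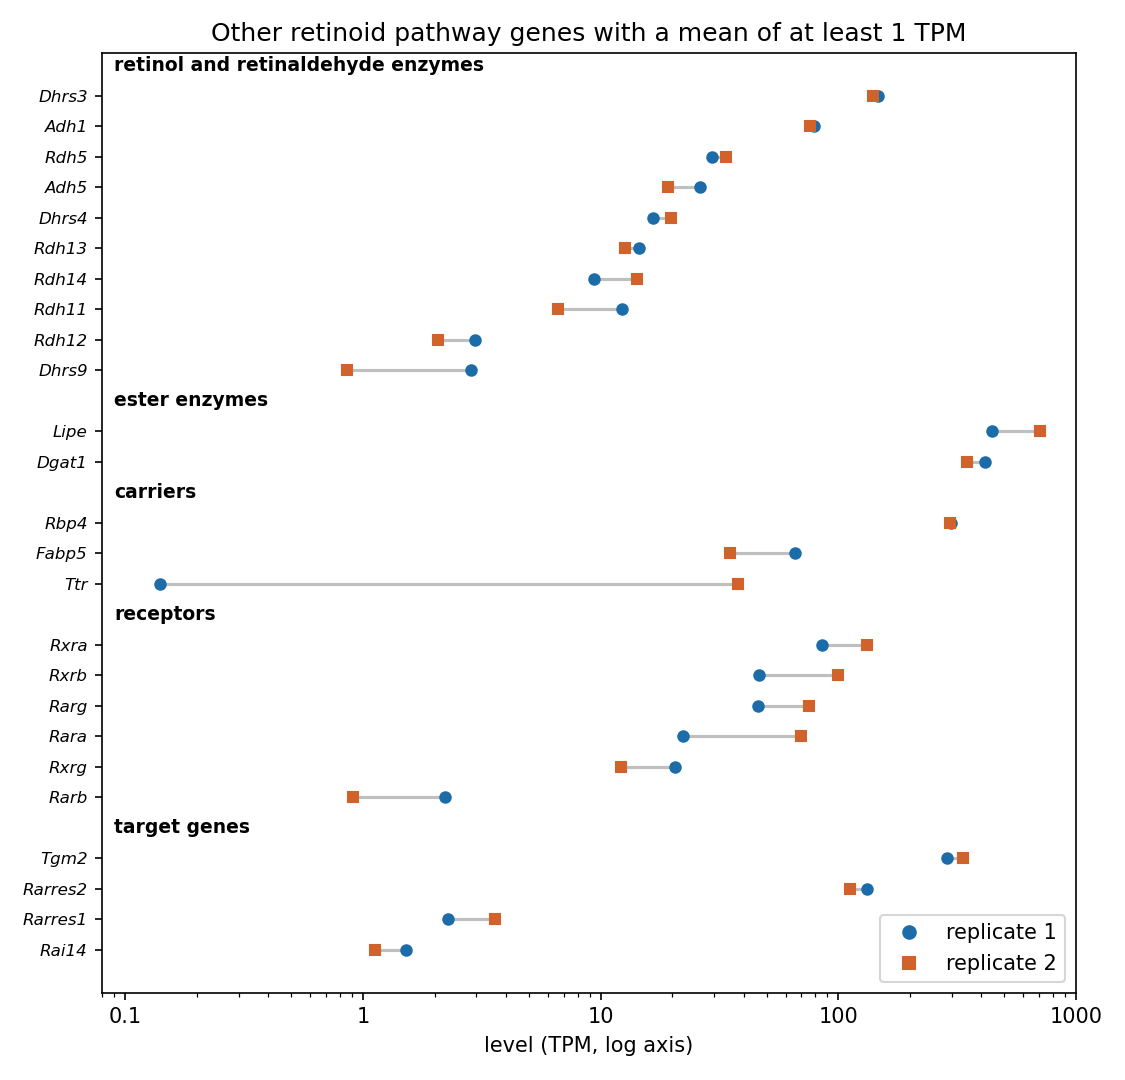
Levels in TPM (log axis) of the 25 other retinoid pathway genes with a mean of at least 1 TPM, grouped by role, with replicate 1 as circles and replicate 2 as squares. The longest line is that of Ttr, at 0.14 and 37.94 TPM, while Rbp4, Adh1 and Dhrs3 have nearly coinciding points.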

How the data were processed

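Polyadenylated RNA from 2 mammary gland libraries of 1 group was analysed. The authors quantified genes and transcripts on mm10 with GENCODE M4, per the submitters' notes in the deposited text files. The tool used for this is not given in the sources used here. Deposited tables give expected counts, TPM, FPKM, posterior mean TPM with posterior standard deviations of counts, and the percent of a gene's TPM taken by each transcript, per the file headers.

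Gene names came from a gene name table and positions from GENCODE M21, matched for 42462 of the 43346 genes. Another 97 entries are spike-in RNAs (887922 and 393479 counts) and were kept out of totals, as were 26248 entries with numeric names, all at 0. Expected counts were rounded for the exact conditional binomial (Clopper-Pearson) 95% interval of each count ratio. A gene was called where the interval lay wholly beyond 2-fold. Levels were compared as log2(TPM + 1), with a pseudocount of 1. The GC trend was the interpolated median over 20 bins of protein-coding genes. Python 3.11.15, scipy 1.17.1, edgeR 4.0.16 (TMM factors) and DESeq2 1.42.0 (size factors) were used, and the interval call and trend removal were tested on simulated data. The intervals cover counting error only, and reads without molecular identifiers are not independent molecules. The labels call the libraries biological replicates and do not say which animals or pools each came from.

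All 9 genes are named, as are their transcripts that reached 5% of a gene in either library and pathway genes with at most 3 fragments in both. Other pathway genes could be named from a mean of 1 TPM. Some genes of the lists are not reported here. The genes and lists were chosen with earlier results of these data known. Marker lists for fibroblasts (sums of 2505 and 2038 TPM), blood endothelium (750 and 816), macrophages and dendritic cells (1005 and 820) and mesothelium (2.43 and 2.73) were also read. Without Eng the endothelium sums were 598 and 589 TPM, and without Lrrn4 the mesothelium sums were 0.34 and 0.05 TPM. The deposited contig and splice junction tables, on mm9, were not used here.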

Additional observations from a re-analysis of the deposited data

How the results depend on the processing

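With 2 libraries, leaving one out gives no difference between libraries, and no paired analysis was possible because the study has a single group. The count of genes wholly beyond 2-fold was 1. It was 2 with DESeq2 size factors (Aldh1a1 and Crabp1), 2 with spike-in totals (Crabp1 and Cyp26b1, not Aldh1a1), 4 at a limit of 1.5-fold and 0 at 4-fold. The shares of all genes toward replicates 1 and 2 were 7.25% and 11.2%, 2.94% and 30.9%, 21.1% and 18.7%, and 2.6% and 1.32% in that order. It stayed at 1 with TMM factors and, in an alternative chosen after seeing the data, with the GC trend removed. Relative to library totals, the size factors moved every log2 count ratio by 0.13 and the spike-in totals by 0.76, which put the median of all genes at 0.07 and 0.70. Under spike-in totals the ratios of Aldh1a2 (0.48), Aldh1a3 (0.59), Rdh10 (0.29), Rbp7 (0.38) and Stra6 (0.58) were above 0. Relative to the median of all genes they were below it. The cause was not tested. The log2 difference was also computed in 6 other ways. These used another pseudocount, posterior mean TPM, FPKM, counts scaled to the library total, or the GC trend removed. The last left mitochondrial genes and the 7 skeletal muscle markers out of the total. Across these ways 7 of 9 genes kept their sign. Aldh1a3 ranged from -0.16 to 0.26 and Stra6 from -0.49 to 0.01. Aldh1a1 ranged from -1.95 to -1.31, Crabp1 from 0.63 to 1.24 and Cyp26b1 from 0.14 to 0.99. Crabp2 ranged from -1.02 to -0.61, Rdh10 from -0.60 to -0.01, Aldh1a2 from -0.35 to -0.01 and Rbp7 from -0.51 to -0.07. For Rdh10, Aldh1a2 and Rbp7 the value nearest 0 was the one with the GC trend removed. Without replicate 1 and without replicate 2 the summed TPM of the 9 genes was 72.5 and 81.9. Of the sum of Aldh1a1, Aldh1a2 and Aldh1a3, the Aldh1a1 share was then 30.5% and 61.8%, the Aldh1a2 share 11.9% and 7.75%, and the Aldh1a3 share 57.6% and 30.5%. Depth limits Crabp2 most, with 36 fragments in replicate 2.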
